A study of Mus musculus with 6 samples.

Results

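The genes described here are 9 genes that mark mast cells, Cma1, Mcpt4, Tpsb2, Tpsab1, Cpa3, Fcer1a, Ms4a2, Kit and Hdc, out of 33924 genes in a table of RNA sequencing of mouse RPE/choroid. They were taken by gene symbol, and all 9 were found. RPE/choroid is the retinal pigment epithelium together with the vascular layer behind it. The libraries came from C57BL/6J mice, 3 young and 3 aged, with both eyes of a mouse pooled. No treatment or engineered allele is given for either age group. By their sample titles the young mice were 1 to 2 months old and the aged mice 20 to 24 months old, while the age field puts the aged mice at 22 to 24 months. The labels call the mice male, whereas the study's text describes both sexes and another age for the young mice.

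The value used is the mean normalized count, which the authors averaged over all 6 libraries of both ages. It is 1 value per gene, so no level in a single mouse, no SD between mice and no difference between young and aged RPE/choroid is given here. The other columns of the table hold the authors' own comparison of the ages and were not used. Each interval below is at the 95% level. Intervals of levels and of the summed share are Poisson intervals, and those of ratios between genes are binomial intervals. They cover counting error only, not the spread between mice. The depth of single libraries is unknown, and the means of all genes sum to 40816668.

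Mast cells are resident immune cells of connective tissue, and in the eye they lie along the vessels of the choroid. They store proteases, histamine and heparin in granules and release them when antigen crosslinks IgE bound to the high-affinity IgE receptor, or when other receptors are engaged. Their survival depends on the receptor tyrosine kinase Kit and its ligand. Basophils share the IgE receptor, Cpa3 and Hdc with mast cells, and melanocytes share Kit.

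All 9 genes were above the mean of 10 used here as the filter on low values, which 18479 genes passed, and all were above 0.521, the highest mean that 3 reads could give. Together they summed to a mean normalized count of 3919, or 0.00960% of the sum over all genes (interval 0.00943 to 0.00978%). The 5 protease genes made up 74.5% of that sum. The median of the 9 genes was 379 in mean normalized count, and the median of the genes that passed the filter was 668. On this undivided scale, where long transcripts collect more reads, only Cma1 lay above the latter. In bulk tissue, fewer cells of a type and less RNA per cell cannot be told apart.

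Ratios between genes were formed after division by the length of the longest annotated transcript, in mean normalized count per kb, and undivided values or other lengths are named where they are given. On that scale the median of the 9 genes was 214 and that of the genes that passed the filter was 213, with 5 of the 9 genes above it. The order from highest to lowest was Cma1, Mcpt4, Tpsb2, Cpa3, Fcer1a, Hdc, Kit, Tpsab1 and Ms4a2, and Cma1 was 27.6-fold above Ms4a2. The range from the highest to the lowest gene was 12.6-fold without division by length, and 17.0-fold with the median transcript length, where Tpsab1 and not Ms4a2 was lowest. The counting intervals of neighbours did not overlap in any of the 8 neighbouring pairs. Whether neighbours differ beyond the spread between mice could not be examined. Of these pairs, 5 kept their order when the median transcript length was used instead.

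**Figure D1:**
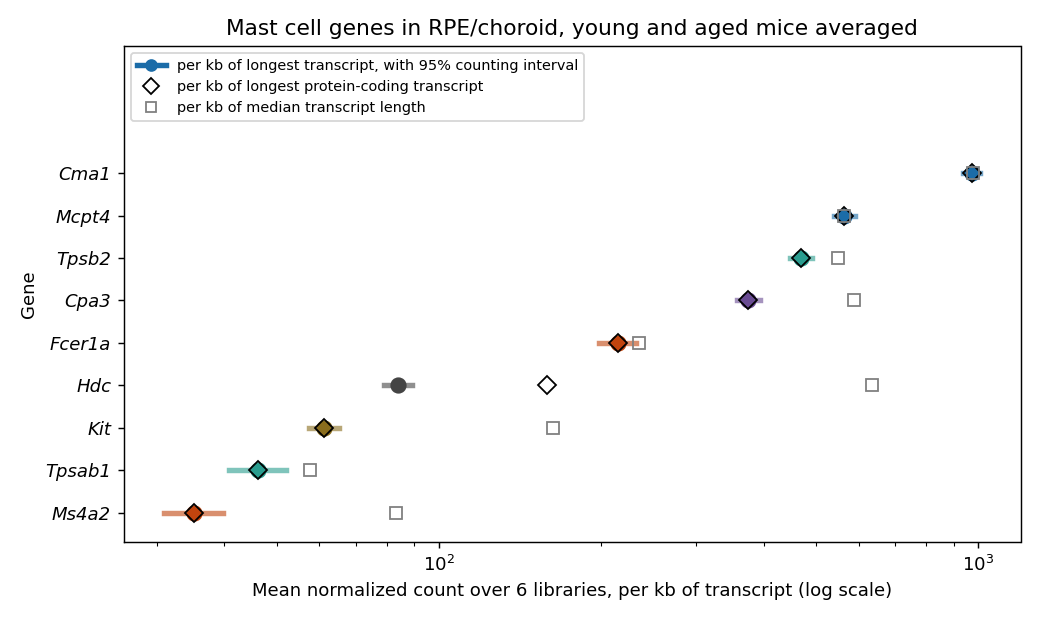
Mean normalized count over 6 libraries per kb of transcript (x axis, log scale) for each of the 9 mast cell genes (y axis). Filled circles use the longest transcript, with bars for the 95% counting interval, and the open diamonds and squares use the longest protein-coding transcript and the median transcript length. Cma1 is highest at 972 and Ms4a2 lowest at 35.2, and Hdc moves most between the lengths, from 83.9 to 636.

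Reads from near-identical copies of a gene can be assigned to the wrong copy, so the sequence of the paired protease genes is shown first. Tpsb2 and Tpsab1 encode the mast cell tryptases, trypsin-like proteases stored on heparin. Their coding sequences were identical at 76.1% of 827 aligned bases, with a longest identical run of 39 bases. The most alike stretch of 60 bases lies in exon 5 of both genes, at chr17:25367721-25367780 on the plus strand for Tpsb2 and chr17:25343485-25343544 on the minus strand for Tpsab1 (GRCm38). Capitals mark the 3 bases that differ.
Tpsb2: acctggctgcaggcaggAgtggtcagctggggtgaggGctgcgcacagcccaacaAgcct
Tpsab1: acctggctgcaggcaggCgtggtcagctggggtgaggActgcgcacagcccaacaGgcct

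The least alike stretch of the same length lies in exon 3 of both, at chr17:25367047-25367106 for Tpsb2 and chr17:25344856-25344915 for Tpsab1, where 28 bases differ.
Tpsb2: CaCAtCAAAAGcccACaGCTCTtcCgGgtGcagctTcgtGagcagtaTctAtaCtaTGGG
Tpsab1: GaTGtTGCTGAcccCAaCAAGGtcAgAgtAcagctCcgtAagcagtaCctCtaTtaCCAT

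Cma1 and Mcpt4 belong to the chymase family of granule serine proteases, and Mcpt4 encodes the main enzyme of chymotrypsin-like specificity in mouse connective tissue mast cells. They were less alike than the tryptases, with 67.6% identity over 732 aligned coding bases and a longest identical run of 27 bases. Their most alike stretch is in exon 5, at chr14:55941738-55941797 for Cma1 and chr14:56060041-56060100 for Mcpt4, both on the minus strand, and holds 8 differences.
Cma1: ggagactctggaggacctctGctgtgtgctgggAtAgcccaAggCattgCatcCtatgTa
Mcpt4: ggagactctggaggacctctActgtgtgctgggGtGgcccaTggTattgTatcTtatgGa

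Their least alike stretch is in exon 3, at chr14:55942639-55942698 for Cma1 and chr14:56061011-56061070 for Mcpt4, with 26 differences.
Cma1: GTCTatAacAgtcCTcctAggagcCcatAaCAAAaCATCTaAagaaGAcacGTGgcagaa
Mcpt4: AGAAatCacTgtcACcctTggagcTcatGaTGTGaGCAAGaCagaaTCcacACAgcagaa

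Within annotated transcripts, every word of 50 bases in Tpsb2, Tpsab1, Cpa3, Kit and Fcer1a was found in no other gene (100% own words). Hdc had 99.9% own words and Ms4a2 97.9%, with 63 words shared with its relative Ms4a4b. Cma1 had 94.6% own words, sharing 56 with the gene model Gm48934, and Mcpt4 had 94.5%, sharing 58 with Cma2. The levels of Cma1, Mcpt4 and Ms4a2 therefore carry the uncertainty of these shared words. How reads matching more than 1 gene were assigned was not examined.

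The chymase genes were the highest of the group as deposited and per kb of the longest transcript, whereas with the median transcript length Cma1 stayed first and Mcpt4 came in place 4, behind Hdc and Cpa3. Cma1 (chr14:55941451-55944675, minus strand) had a mean normalized count of 1059 (interval 1023 to 1097), at the percentile 60.3 of the genes that passed the filter. Mcpt4 (chr14:56059629-56062313, minus strand) had 625 (597 to 654), at the percentile 48.6. Both together held 43.0% of the summed mean of the 9 genes. Per kb, Cma1 was 1.72-fold above Mcpt4 (counting interval 1.63 to 1.82), and the ratio was 1.69 without division by length.

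Both chymase genes lie in a locus of 15 protein-coding protease genes, which also holds granzymes of cytotoxic lymphocytes and the cathepsin G gene. Cma1 and Mcpt4 held 93.8% of the summed mean normalized count of this locus. Of the other genes, 6 were listed at 0, Mcpt9, Gzme, Gzmd, Gzmg, Gzmn and Gzmf, and 10 of the 15 were below the mean of 10. Mcpt1 and Mcpt2 encode proteases known from mast cells of mucosal surfaces. Mcpt1 had a mean normalized count of 0.686, about 4 reads in all libraries together, although its coding sequence was 86.4% identical to that of Mcpt4. Mcpt2, 79.4% identical to Mcpt4, had 62.5, and Mcpt4 was 9.58-fold above it per kb (8.24 to 11.2). Cma2, a chymase gene next to Cma1, had a mean normalized count of 4.62, with only 60.2% own words, and its coding sequence was 64.7% identical to that of Cma1. Cma1 was 199-fold above Cma2 per kb (118 to 366). Mcpt8, which encodes a protease of basophils, had a mean normalized count of 3.06 and Ctsg, the cathepsin G gene, 2.35. The lymphocyte genes Gzmc and Gzmb had 19.5 and 19.0.

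The tryptase genes differed far more from each other than the chymase genes did. Tpsb2 (chr17:25366305-25369098, plus strand) had a mean normalized count of 605 (578 to 634), at the percentile 48.0. Tpsab1 (chr17:25343245-25345562, minus strand) had 89.0 (78.7 to 100), at the percentile 21.1. Per kb, Tpsb2 was 10.2-fold above Tpsab1 (8.94 to 11.6), and without division by length the ratio was 6.80. C57BL/6 mice are known to lack the Tpsab1 protein because of a splice site change, and the table gives no information on protein or splicing. In the tryptase locus of 6 protein-coding genes these 2 held 96.5% of the summed mean. Prss28 and Prss29 were listed at 0. Tpsg1, the gene of the membrane-anchored tryptase, had a mean of 17.3 and Prss34, a protease gene of basophils and mast cells, 8.01.

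**Figure D2:**
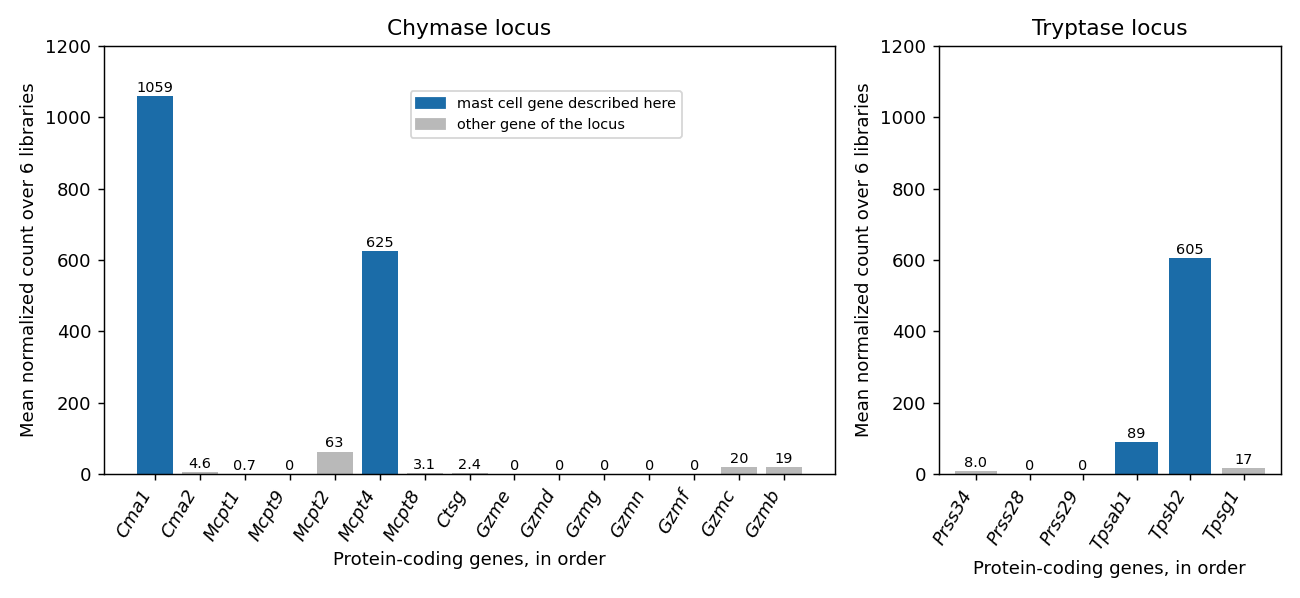
Mean normalized count over 6 libraries, not divided by length (y axis, from 0), of each protein-coding gene, in chromosomal order, in the chymase and tryptase loci. Blue bars are the mast cell genes described and grey bars the other genes. Cma1 (1059), Mcpt4 (625) and Tpsb2 (605) stand above every other gene of both loci, of which Tpsab1 (89.0) and Mcpt2 (62.5) are the highest.

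Cpa3 encodes carboxypeptidase A3, which trims C-terminal residues of peptides and is stored in the same granules as chymase. Cpa3 (chr3:20215620-20242181, minus strand) had a mean normalized count of 543 (517 to 570), at the percentile 45.8. Per kb, its level was 0.798 of that of Tpsb2 (0.746 to 0.853) and 0.385 of that of Cma1 (0.363 to 0.409). With the median transcript length, Cpa3 lay above Tpsb2, at 588 against 550 per kb, and stood at 0.600 of Cma1.

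Of 9 further genes on the list of granule proteases of mast cells and basophils, 3 reached the mean of 10, Mcpt2, Tpsg1 and Gzmb. Gzmb is the gene named above as a lymphocyte gene, so it is not particular to mast cells. The median of that list was 4.88 per kb, against 214 for the 9 mast cell genes. The granule matrix list holds Srgn, the core protein that carries the heparin chains, and enzymes that build and modify these chains. All 7 of its genes were above the filter, Srgn with a mean normalized count of 2576 and Ndst2, a sulfotransferase needed for mast cell heparin, with 602. These genes are also used by other cell types. Heparin-chain enzymes spanned 514 for Hs6st1 to 2643 for Extl3, with Ndst1 at 2115, Ext1 at 1927 and Glce at 1614.

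The high-affinity IgE receptor is built from an IgE-binding alpha chain (Fcer1a), a signal-amplifying beta chain (Ms4a2) and gamma chains (Fcer1g). Fcer1a (chr1:173221284-173227214, minus strand) had a mean normalized count of 214 (198 to 231), at the percentile 31.1. Ms4a2 (chr19:11615523-11623719, minus strand) had 84.1 (74.0 to 95.1), at the percentile 20.4. Per kb, Fcer1a was 6.10-fold above Ms4a2 (5.26 to 7.08), and the ratio was 2.55 without division by length and 2.82 with the median transcript length. Fcer1g, which macrophages and other myeloid cells also use for their Fc receptors, had a mean normalized count of 790 and was 5.40-fold above Fcer1a per kb (4.94 to 5.90).

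All 15 genes of the list for the receptor's gamma chain and proximal signalling passed the filter, with a median of 275 per kb. The kinase genes Lyn, Fyn and Syk, which start the signal, had mean normalized counts of 1234, 1122 and 698. The adaptor genes Lat2, Lcp2 and Lat had 988, 231 and 100. Rasgrp1, an activator of Ras, was lowest per kb at 28.5. Inpp5d and Ptpn6, phosphatases that limit the signal, had mean normalized counts of 823 and 1386. Plcg1 and Plcg2, phospholipases that trigger calcium release, had 5119 and 621, Gab2 1876, Vav1 814 and Btk 113. Fcer1a and Ms4a2 are not on this list, and most of its genes also act in macrophages and lymphocytes.

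Kit (chr5:75574916-75656722, plus strand) had a mean normalized count of 321 (301 to 341), at the percentile 36.8. Per kb, Kit was at 61.2 and Cma1 was 15.9-fold above it (14.8 to 17.1), while the ratio was 3.31 without division by length and 6.03 with the median transcript length. The gene of its ligand, Kitl, had a mean normalized count of 7088 and was 20.5-fold above Kit per kb (19.2 to 21.9), or 45.1-fold with the median transcript length. All 9 genes of the Kit ligand and signalling list passed the filter, from 2.76 per kb for Cbl, which marks receptors for degradation, to 1255 for Kitl. The Cbl value rests on a longest transcript of 11372 bases. Cbl had a mean normalized count of 31.4, and 68.7 per kb with the median transcript length. Pik3r1, Stat5b and Grb2, which pass the signal on, had mean normalized counts of 6465, 2473 and 2319. Stat5a, Pik3cd, Sos1 and Sh2b3 had between 592 for Stat5a and 882 for Sh2b3. Melanocytes of the choroid also express Kit, and the melanocyte gene Sox10 had a mean normalized count of 1256. Kit stood at 0.135 of Sox10 per kb (0.126 to 0.145), at 0.255 without division by length and at 0.239 with the median transcript length. The part of melanocytes in the Kit value was not tested.

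Hdc encodes histidine decarboxylase, the enzyme that makes histamine. Hdc (chr2:126593667-126619299, minus strand) had a mean normalized count of 379 (357 to 402), at the percentile 39.6. Its level per kb depended on the transcript chosen. It was 83.9 with the longest transcript of 4518 bases, which is annotated as a retained intron, 158 with the longest protein-coding transcript of 2392 bases and 636 with the median transcript length. Hdc was in place 6 of the order with both of the first lengths, in place 2 with the median transcript length and in place 5 without division by length.

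Among the genes for storing and breaking down amines, 6 of 8 passed the filter. Slc18a2, the transporter that loads histamine and serotonin into granules, had a mean normalized count of 1217 and was 3.30-fold above Hdc per kb (3.09 to 3.53). This ratio was 2.03 with the longest protein-coding transcripts and turned to 0.468, with Slc18a2 below Hdc, with the median transcript length. Tph1, the first enzyme of serotonin synthesis in mouse mast cells, had 75.4, and Hdc was 5.08-fold above it per kb (4.40 to 5.88), 9.59-fold with protein-coding transcripts and 8.96-fold with the median length. Ddc, the next enzyme of that route, had 1346, and the monoamine oxidase genes Maoa and Maob had 2605 and 685. Hnmt, the histamine-methylating enzyme, had a mean normalized count of 2865, or 20.6-fold above Hdc per kb (19.4 to 22.0), with ratios of 10.9 for protein-coding transcripts, 2.76 for the median length and 7.56 without division by length. Aoc1, the other histamine-degrading enzyme, was listed at 0 under its older symbol Abp1, and the amine transporter gene Slc22a3 had 3.30. Of the 4 histamine receptor genes, Hrh3, Hrh1 and Hrh2 were above the mean of 10, with Hrh3 highest at 45.8 in mean normalized count, and Hrh4 was at 1.01.

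**Figure D3:**
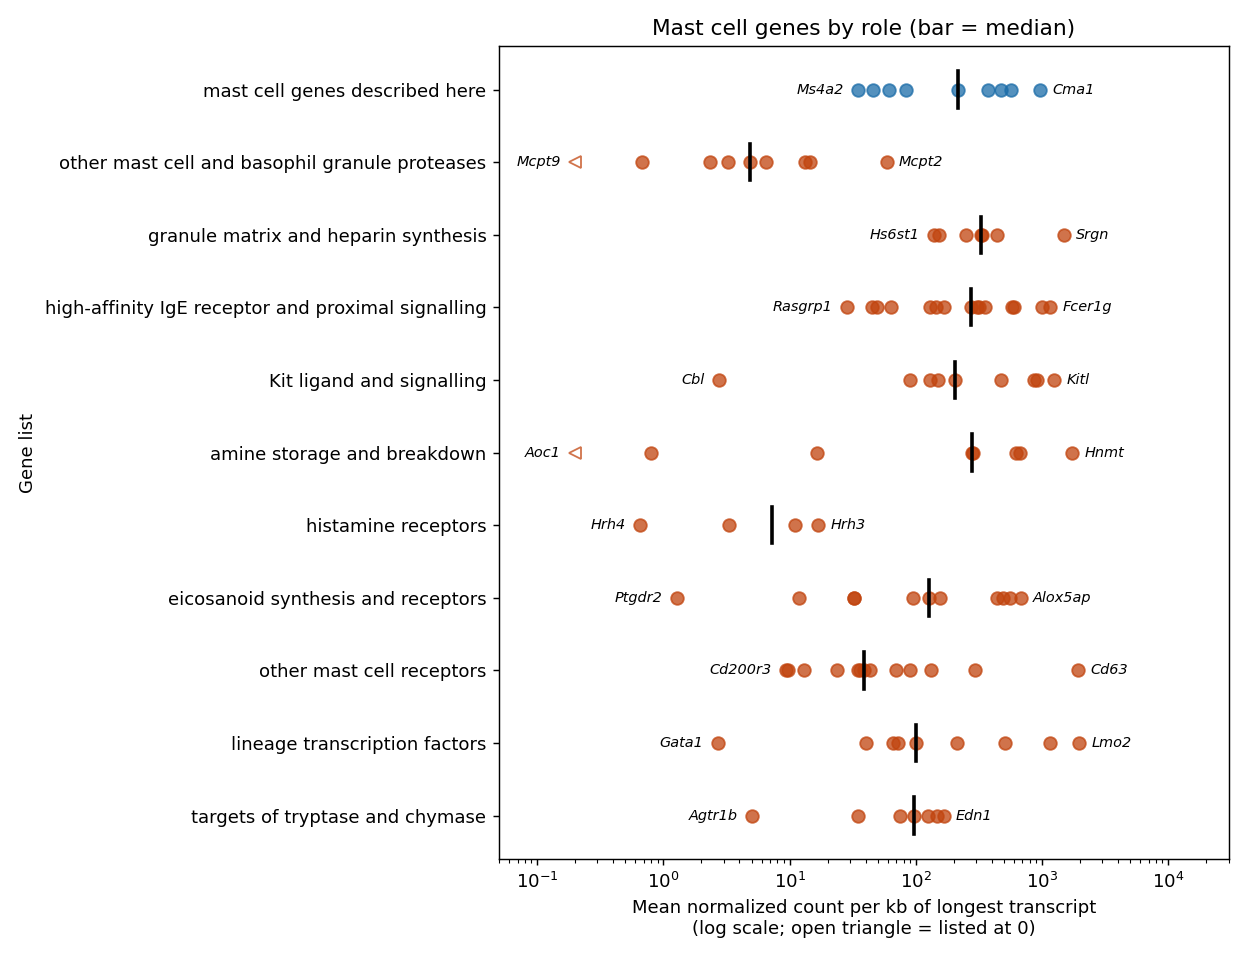
Mean normalized count per kb of the longest transcript (x axis, log scale) of each gene in lists of mast cell functions (y axis), with a black bar at each list's median and the lowest and highest gene named. The 9 mast cell genes span 35.2 to 972, and the list of other granule proteases has the lowest median, 4.88.

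Mast cells also make prostaglandin D2 and leukotrienes. Of the 11 genes for these lipids and their receptors, 10 passed the filter. Hpgds, the prostaglandin D2 synthase of blood cells, had a mean normalized count of 1913 and Ltc4s, the leukotriene C4 synthase, 91.7. Alox5 and its partner Alox5ap, which start leukotriene synthesis, had 115 and 847. Ptgs1, Ptgs2 and Pla2g4a, which supply prostaglandin precursors, had 1253, 423 and 1908. The receptor genes Cysltr1, Ptgdr, Cysltr2 and Ptgdr2 had 797, 102, 20.9 and 3.37. Macrophages express several of these genes as well.

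All 13 genes of the list of other mast cell receptors passed the filter. Mrgprb2, the receptor for peptides and drugs that activate mouse mast cells without IgE, had a mean normalized count of 72.1 and its relative Mrgprb1 161. Per kb, Mrgprb1 was at 1.11 of Mrgprb2, with a counting interval that includes equal levels (0.944 to 1.31), but the ratio was 2.24 without division by length and 9.85 with the median transcript length. Mrgprx2 had 45.0. Il1rl1, the interleukin 33 receptor, had a mean of 193, and the cytokine receptor genes Csf2rb, Il3ra and Csf2rb2 had 439, 304 and 204. Cd63, a granule membrane protein that many cells express, was the highest of the list per kb, at 1924, and C3ar1, the complement C3a receptor of mast cells and macrophages, followed at 293 per kb. Their mean normalized counts were 5568 and 1263. Siglecf, C5ar1, Cd200r3 and Adora3 had 180, 60.3, 36.2 and 31.0.

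Of the 9 genes on the list of lineage transcription factors, not all of them particular to mast cells, 8 passed the filter. Gata2, which mast cells need, had a mean normalized count of 144 and Gata1 5.13, so Gata2 was 14.9-fold above Gata1 per kb (9.01 to 26.7) and 28.1-fold without division by length. Mitf, which acts in mast cells and also in melanocytes and RPE, had 5647. Lmo2 was at 3367, Cebpa at 1329, Ikzf2 at 668, Runx1 at 593, Spi1 at 433 and Tal1 at 276. Endothelial cells use Lmo2, Tal1 and Gata2 as well.

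The Mcpt4 chymase can convert angiotensin I to angiotensin II, and tryptase can activate the receptor PAR2. All 7 genes of the list of such targets and of the angiotensin system passed the filter. F2rl1, the PAR2 gene, had a mean normalized count of 96.0 and Agt, the angiotensin precursor, 278. Ace, the other enzyme that makes angiotensin II, had 618. The angiotensin receptor genes Agtr1a, Agtr2 and Agtr1b had 215, 248 and 10.9, and Edn1, the precursor of endothelin 1, which chymase can cleave, had 355.

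Levels of markers of other cells are given beside those of the 9 mast cell genes. Which cells the RNA of the 9 genes came from was not tested, since bulk levels of different genes cannot show it. Of the 5 basophil markers, Mcpt8 (3.06) and Prss34 (8.01) had mean normalized counts below 10. The remaining basophil markers, Cd200r3 (36.2), Gata2 (144) and Il3ra (304), are shared with mast cells or other cells. The basophil list had a median of 9.35 per kb, which is the level of Cd200r3, and the 9 mast cell genes had 214. Macrophage markers had a median of 1855 per kb, endothelial markers 913, fibroblast markers 3985 and Schwann cell markers 520. T cell, B cell and neutrophil markers had medians of 28.3, 22.0 and 30.2 per kb. The neutrophil list ran from Mpo, listed at 0, to S100a9 at 866 per kb, with S100a8 at 719, both above the median of the mast cell genes. RPE markers had a median of 47916, with Ttr highest at 335233 and Best1 lowest at 39.3 per kb, and melanocyte markers, several of which RPE shares, 16166. Rod photoreceptor markers (median 8974) and skeletal muscle markers (28023) were above the mast cell genes too, although the dissection removed retina and muscles. Since each gene has 1 pooled value, whether any of these cell types varied with the mast cell genes between mice was not tested.

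**Figure D4:**
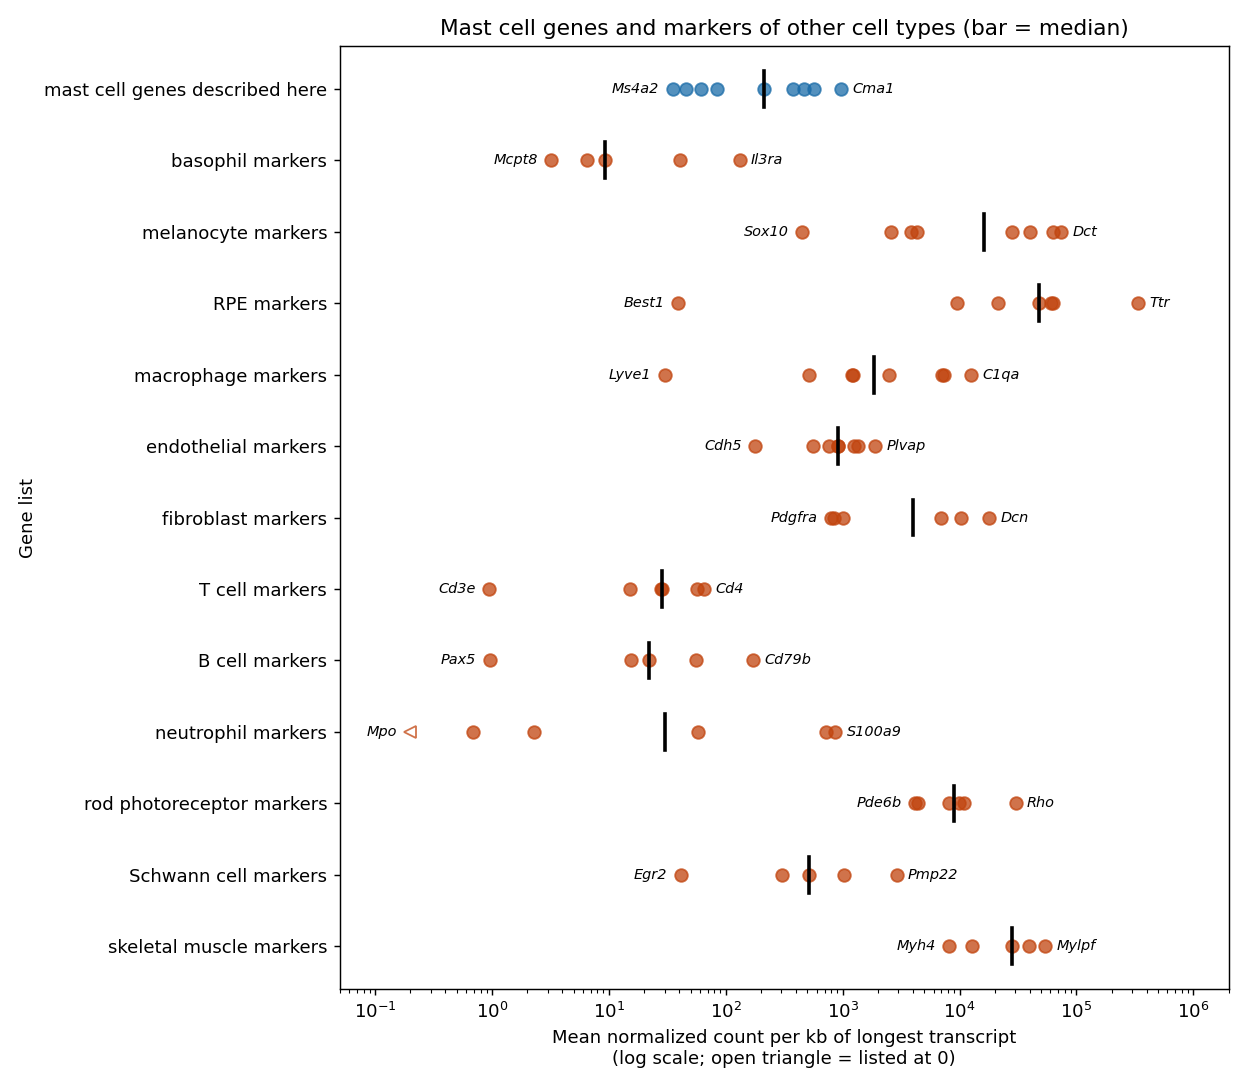
Mean normalized count per kb of the longest transcript (x axis, log scale) of each marker gene by cell type (y axis), with a black bar at each list's median and the lowest and highest gene named. The median of the 9 mast cell genes (214) lies above those of basophil, T cell, B cell and neutrophil markers and below those of the other 8 lists.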

How the data were processed

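RNA of RPE/choroid from 3 young and 3 aged mice was extracted with TRIzol and column purification. The labels name poly(A) RNA as the molecule and describe ribosomal RNA depletion with a stranded total RNA kit. By the paper's text, both were done for this set: ribosomal RNA was depleted and poly(A) RNA selected. Per the study's methods and the submitters' processing notes, trimmed reads were mapped with STAR (GRCm38), quantified with Sailfish, scaled to total counts and compared with DESeq2. The deposited mean normalized count is a signal: counts divided by size factors and averaged by the authors over all 6 libraries. The deposited fold changes, standard errors, statistics and p-values are the authors' own comparison and were neither used nor printed. The planned edgeR test needs counts per library, and the table holds 1 mean per gene, so it was not run.

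Genes seen in 1 library only have means that are whole multiples (tolerance 3e-06) of 6 values from 0.157 to 0.174, the share of 1 read. Of these genes 1014 had 2 reads and 576 had 1, so the number of read pairs was taken as the mean times 6 divided by 2. The 95% intervals rest on pairs, which need not be whole numbers. They are Poisson intervals for levels and sums and binomial intervals for ratios. Sums over genes were treated as 1 count. Lengths, positions and transcripts came from the GENCODE M21 annotation of GRCm38, which gave a length for 97.3% of the 18479 genes with a mean of at least 10. Percentiles are among these genes. Coding sequences were aligned globally, and words of 50 bases were compared with all annotated transcripts. Older symbols were used for 6 list genes, such as Sykb for Syk. The 9 genes and the 23 gene lists were chosen with earlier results of these data known. All 9 genes, every gene of the mast cell lists and the extremes of the marker lists were to be named. Software versions were matplotlib 3.10.9, scipy 1.17.1, pandas 2.3.3 and numpy 2.4.6, run under Python 3.11.15.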

Additional observations from a re-analysis of the deposited data

How the results depend on the processing

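The share of the 9 genes in the summed mean was 0.00961% over genes with a mean of at least 10 and 0.0121% without the 100 most abundant genes. Their median percentile was 39.6 among genes with a mean of at least 10, 56.2 among genes with a mean above 0, 28.8 among genes with a mean of at least 50, and 50.1 per kb. All 9 genes had a mean of at least 50, and 7 of at least 100. Of the 8 neighbouring pairs in the order per kb, 5 kept their order with the median transcript length, 7 without division by length and 8 with the longest protein-coding transcript, an alternative chosen after seeing the data, as were the other lengths for ratios between genes. Of the ratios printed above to Hdc and among the 9 genes, Slc18a2 to Hdc and Cpa3 to Tpsb2 turned direction with the median length, at 0.468 and 1.07. Pairs without a printed ratio turned too. Hdc came above Mcpt4, Tpsb2, Cpa3 and Fcer1a, Cpa3 above Mcpt4, and Ms4a2 above Tpsab1. Of 27 levels of single genes under the alternatives for length, 16 lay outside the counting interval per kb. This count includes undivided levels, which are in another unit than the interval and cannot be set against it. With the median transcript length, the levels of Tpsb2, Cpa3, Fcer1a, Hdc, Kit, Tpsab1 and Ms4a2 lay outside. With the longest protein-coding transcript, only that of Hdc did. No paired analysis was possible because only a mean over all libraries is given, and for the same reason the replicate block, leaving out a replicate, other size factors and other filters on a test between ages were not run. Depth limits the genes with means of a few reads, such as Mcpt1, while the 9 genes lay far above the mean that 3 reads give.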
